A study of Mus musculus with 6 samples.

Results

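The 9 genes described here encode the core kinases of the Hippo pathway and the proteins that act on them: Stk3, Stk4, Sav1, Lats1, Mob1a, Mob1b, Nf2, Amot and Amotl1. They were taken by gene symbol from a table of 13706 genes, all 9 were listed in it, and all 9 passed the filter on low levels. RNA was measured in 6 libraries of primary mouse dermal fibroblasts, 2 per group, with QuantSeq, which reads one tag near the 3' end of each polyadenylated transcript. Control cells were homozygous for floxed alleles (Yap1 fl/fl and Wwtr1 fl/fl) and had no Cre. Knockout (KO) cells carried R26-CAG-CreER beside the same floxed alleles. Tamoxifen activates this Cre, which the ROSA26 locus expresses in all cells, to delete Yap1, which encodes YAP, and Wwtr1, which encodes TAZ. KO + H-151 cells had the genotype of the KO cells and also received 1 µM H-151, an inhibitor of the innate immune adaptor STING. All 3 groups, control included, were kept for 72 hr with 1 µM 4-hydroxytamoxifen. Because the control cells carried no Cre, Cre activity and the loss of YAP and TAZ cannot be told apart in these libraries, and there was no H-151 group without the deletion. Whether both libraries of a group stem from different cultures or mice is not stated, so the p-values measure the spread between these libraries, which may be technical.

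The Hippo pathway is a kinase cascade that restrains YAP and TAZ. Stk3 and Stk4 encode the kinases MST2 and MST1, which, bound to the adaptor SAV1, phosphorylate the LATS kinases and their MOB1 cofactors. Active LATS phosphorylates YAP and TAZ, which are then held in the cytoplasm or degraded. NF2 (merlin) brings LATS to the membrane, and the angiomotins AMOT and AMOTL1 bind YAP at junctions and actin. Some regulators of the pathway are known transcriptional targets of YAP and TAZ, which gives it a feedback arm. Of the genes described here, only Nf2 is on the list of such targets read below.

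The promoters of Sav1 and Amot are shown because these were the members whose RNA differed between KO and control. Each window runs from 250 bases before to 50 bases after the RefSeq start, on the GRCm38.p6 build. Capitals mark a match to a motif searched on both strands, which is CATTCC, the reverse complement of the TEAD core GGAATG, in Sav1 and the STAT-type GAS motif TTCNNNGAA in Amot.
Sav1, chr12:69986953-69987252, minus strand: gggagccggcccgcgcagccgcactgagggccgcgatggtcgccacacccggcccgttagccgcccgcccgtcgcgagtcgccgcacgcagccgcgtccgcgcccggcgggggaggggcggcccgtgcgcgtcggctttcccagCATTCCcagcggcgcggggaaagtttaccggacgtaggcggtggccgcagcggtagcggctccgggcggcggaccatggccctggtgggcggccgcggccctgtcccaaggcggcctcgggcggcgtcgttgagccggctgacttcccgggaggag
Amot, chrX:145487590-145487889, minus strand: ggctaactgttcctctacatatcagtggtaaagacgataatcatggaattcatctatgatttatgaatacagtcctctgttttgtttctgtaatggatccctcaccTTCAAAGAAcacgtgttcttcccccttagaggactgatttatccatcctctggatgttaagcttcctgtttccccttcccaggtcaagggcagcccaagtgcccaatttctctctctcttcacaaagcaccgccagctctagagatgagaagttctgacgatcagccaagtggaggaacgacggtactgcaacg
TEAD proteins are the DNA-binding partners of YAP and TAZ, and STAT proteins act downstream of interferons. The match in Sav1 began at position -106 and that in Amot at -144, with the start base counted as 0. RefSeq windows were found for 8 of the 9 genes, 9 windows in all, and Stk3 had none. GGAATG stood in the windows of Sav1 and Mob1a, against 14.7% of 32851 mouse promoters of the same length. TTCNNNGAA stood in the window of Amot, against 8.30% of all promoters. The interferon-stimulated response element, searched as GAAA and GAAA with 2 free bases between them, stood in 0 of the 9 windows, against 3.44%. The Sav1 window held 50 CpG dinucleotides and was 78.3% G and C, while the Amot window held 7 and was 46.0% G and C. The Amot window belongs to a RefSeq start inside the GENCODE gene, and the data do not tell which start was used. These matches describe the letters of the windows and say nothing about binding.

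Levels are given as scaled CPM, the deposited CPM values, which the authors scaled by library, in the order of library 1 and library 2 of a group. Log2 changes are differences of log2(scaled CPM + 1), ± SE, tested with limma across 13648 genes and called where the adjusted p was below 0.05. They understate the changes of genes with low levels. Where an alternative scaling is named, total-count scaling moved the median of all genes to -0.16 in KO against control and to 0.18 with H-151 against KO, and quantile normalization to -0.10 and 0.10, and their values include this shift. The libraries held 12444986 to 15308100 reads in listed genes, and 1 read was worth 0.0625 to 0.0871 scaled CPM. Wwtr1 fell from 213 and 218 in control to between 3.07 and 5.03 in the 4 Cre-bearing libraries, and Yap1 from 122 and 128 to 66.4 and 68.3 in KO and to 45.3 and 42.4 in KO + H-151 (log2 change with H-151 against KO -0.61 ± 0.08, limma adjusted p = 8.35e-06). The floxed exons are not named, so 3' tags left from Yap1 do not measure intact transcript. All 8 fibroblast markers were present, with sums of 32144 and 32678 scaled CPM in control, 36817 and 38689 in KO, and 25726 and 23789 in KO + H-151. All 8 macrophage markers were present too, with sums of 1307 and 1096 in control, 1374 and 1383 in KO, and 3535 and 2836 in KO + H-151. All 8 rose there against KO and against control. Of 6 keratinocyte markers only Krt10 was listed, at 10.97 or less. The 6 endothelial markers summed to 19.5 and 17.9 in control, 13.23 and 12.01 in KO, and 21.4 and 18.5 in KO + H-151. The part of other cell types in the results below was not tested, and in bulk RNA a change in the number of cells of a type and a change in RNA per cell cannot be told apart.

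Between KO and control, Sav1 RNA was higher and Amot RNA lower, and the other 7 members did not pass the test. Thus 1 of 9 members rose, against 18.2% of all genes tested, and 1 of 9 fell, against 14.2% of all genes. These shares do not set the members apart from the genome. With H-151, 3 of 9 members rose against KO (Stk4, Nf2 and Amot; 19.4% of all genes rose) and 2 fell (Sav1 and Mob1a; 21.4% of all genes fell). Between KO + H-151 and control, 0 of 9 rose and 0 fell in limma, against 11.5% and 11.4% of all genes. There 1 member, Amot, had an unadjusted p below 0.05, edgeR called Amot as higher, and DESeq2 called 0. The median log2 change of the 9 members was 0.01, 0.04 and 0.04 in the 3 comparisons in this order, beside -0.01, 0.02 and 0.00 over all genes. The first and second comparison share the KO libraries, so an extreme value there moves both.

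**Figure D1:**
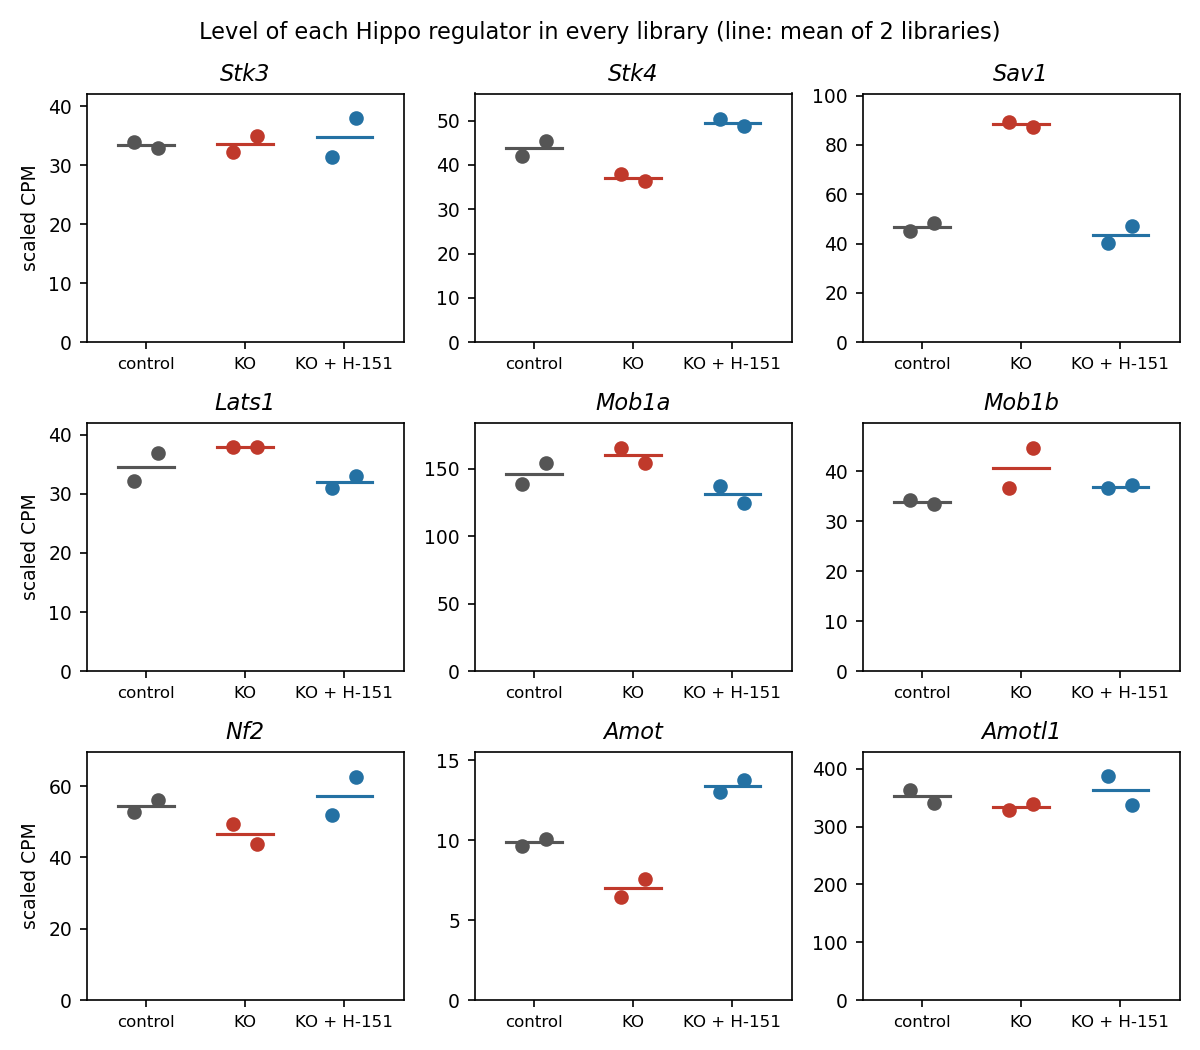
Scaled CPM (vertical axes, from 0, a scale of its own for each gene) of the 9 Hippo regulators in each library of the control, KO and KO + H-151 groups; points are libraries and lines the mean of 2. Sav1 stood at 89.2 and 87.5 in KO and at 48.2 or less in the other 4 libraries, and Amot was lowest in KO and highest with H-151.

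Sav1 (chromosome 12, 69965012 to 69987002, minus strand, GRCm38) encodes the adaptor that joins MST1 and MST2 to LATS. Its level was 45.3 and 48.2 in control, 89.2 and 87.5 in KO, and 40.0 and 47.0 in KO + H-151. The KO libraries lay far above the other 4, and control and KO + H-151 overlapped. The ratio of the means was 1.89 in KO against control, a log2 change of 0.90 ± 0.09 (limma adjusted p = 6.1e-07). With H-151 it was 0.493 of the KO mean, a log2 change of -1.01 ± 0.09 (limma adjusted p = 1.33e-07). KO + H-151 against control gave -0.10, with a 95% interval of -0.29 to 0.09 (adjusted p = 0.459). Both of the first 2 calls held in all 19 alternative analyses, with log2 changes of 0.74 to 0.95 and of -1.12 to -0.83.

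The 3' end of Sav1 overlaps that of Atl1, a gene for an endoplasmic reticulum GTPase on the other strand, by 1406 bases, and the strand setting of the authors' counting was not given in the sources used here. Without strand, reads of the 2 genes in the overlap cannot be told apart. Atl1, chosen after its values were seen, was listed at 8.12 and 8.79 in control, 5.05 and 4.85 in KO, and 6.73 and 8.82 in KO + H-151. It moved against Sav1, with a log2 change of -0.67 ± 0.17 in KO against control (limma adjusted p = 0.00664) and of 0.55 ± 0.17 with H-151 (adjusted p = 0.0170). The pseudogene Gm3086, also on the other strand, covers the same end and was not analysed here. None of the other 8 members had its 3' end covered by another annotated gene. None of the 451 windows of 50 bases in the last 500 bases of each member occurred in another gene's transcripts. Only the sense strand of the transcripts was searched, so this could not show overlap with a gene on the other strand, such as Atl1. Among markers of other cells, Sox10, which marks Schwann cells and melanocytes, was also high in KO. It stood at 15.2 and 10.8 in control, 42.3 and 47.9 in KO, and 3.46 and 2.94 in KO + H-151, and its part in the Sav1 result was not tested. Mlana, S100b, Dct and Pmel, also listed as markers of these cells, did not share one pattern. Mlana was higher in KO and in KO + H-151 than in control (0.36 and 0.58, then 2.26 and 3.49, then 3.33 and 2.38). S100b stood at 11.9 and 9.59, then 16.1 and 14.1, then 21.8 and 16.7. Dct fell in KO by 0.77 on the log2 scale (limma adjusted p = 0.00824), and Pmel changed by 0.03 (adjusted p = 0.942). The summed fibroblast markers were also highest in KO and lowest in KO + H-151, but the single markers did not all share this pattern. Of the 8, 3 rose and 1 fell in KO, and 4 rose and 4 fell with H-151 against KO. Pdgfra stood at 157 and 155 in control, 65.8 and 70.3 in KO, and 144 and 140 in KO + H-151.

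The upstream kinases were examined next. Stk4 (chromosome 2, 164070322 to 164155524, plus strand) encodes MST1. Its level was 42.1 and 45.5 in control, 37.9 and 36.3 in KO, and 50.3 and 48.8 in KO + H-151. The 3 groups did not overlap, with KO lowest and KO + H-151 highest. The difference of -0.23 ± 0.09 in KO against control missed the threshold (limma adjusted p = 0.0535). It passed in 6 of 19 alternatives, among them the 2 groups alone (adjusted p = 0.0444), quantile normalization (0.00779) and total-count scaling (0.00213). In the other 13, edgeR and DESeq2 among them, it missed the threshold. The log2 change ranged from -0.39 to -0.18 over the 19. With H-151, Stk4 rose against KO by 0.41 ± 0.09 (limma adjusted p = 0.00141), a call that held in all 19 alternatives. KO + H-151 and control differed by 0.18, with a 95% interval of -0.01 to 0.36 (adjusted p = 0.177).

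Stk3 (chromosome 15, 34875496 to 35178921, minus strand) encodes MST2, the paralogue of MST1. Its level was 34.0 and 32.9 in control, 32.3 and 35.0 in KO, and 31.42 and 38.02 in KO + H-151. The libraries of the 3 groups overlapped throughout, and the KO + H-151 libraries lay farthest apart. Its log2 change was 0.01 in KO against control, with a 95% interval of -0.22 to 0.23 (limma adjusted p = 0.973), and turned to -0.08 and -0.15 under quantile normalization and total-count scaling. Against KO the change with H-151 was 0.04, with an interval of -0.19 to 0.26 (adjusted p = 0.800). Stk3 thus showed no detectable change, but differences of up to 0.26 on the log2 scale lay within these intervals.

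Lats1 (chromosome 10, 7681214 to 7716460, plus strand) encodes a kinase that phosphorylates YAP and TAZ directly. Its level was 32.1 and 36.8 in control, 37.88 and 37.90 in KO, and 31.0 and 33.1 in KO + H-151. The KO libraries were the highest, and those of control and KO + H-151 overlapped. The log2 change in KO was 0.14 ± 0.10 (limma adjusted p = 0.322), and it turned to -0.02 under total-count scaling. With H-151 it was -0.24 ± 0.10 against KO (adjusted p = 0.0689). Neither passed the threshold.

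Mob1a (chromosome 6, 83326016 to 83343776, plus strand) and Mob1b (chromosome 5, 88720855 to 88764220, plus strand) encode the near-identical cofactors of LATS. Mob1a stood at 138 and 154 in control, 165 and 154 in KO, and 137 and 125 in KO + H-151. The lower KO library was level with the higher control library, whereas both KO + H-151 libraries lay below all 4 others. Mob1a fell with H-151 against KO by 0.29 ± 0.08 on the log2 scale (limma adjusted p = 0.00678). This call was lost under quantile normalization (adjusted p = 0.398), under total-count scaling (0.243), with no trend in the prior variance (0.0758) and without KO library 1 (0.104). In KO against control its change was 0.13 ± 0.08 (adjusted p = 0.222), which turned to -0.02 and -0.03 under quantile normalization and total-count scaling.

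Mob1b stood at 34.3 and 33.5 in control, 36.7 and 44.7 in KO, and 36.6 and 37.3 in KO + H-151. The KO libraries were above control but far from each other, and KO library 1 was level with the KO + H-151 libraries. The change of 0.25 ± 0.10 in KO missed the threshold (limma adjusted p = 0.0727), as it did in 17 of 19 alternatives. Without KO library 1 it was 0.39. With H-151 the change against KO was -0.13 ± 0.10 (adjusted p = 0.331), and it turned to 0.04 under total-count scaling.

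Nf2 (chromosome 11, 4765845 to 4849536, minus strand) encodes merlin, a membrane-linked tumour suppressor that recruits LATS. Its level was 52.8 and 56.1 in control, 49.3 and 43.7 in KO, and 51.8 and 62.4 in KO + H-151. Both KO libraries were below the other 4, and the KO + H-151 libraries lay on either side of control. The difference in KO was -0.23 ± 0.10 (limma adjusted p = 0.0930). It passed in 6 of 19 alternatives, among them the 2 groups alone (adjusted p = 0.0418), quantile normalization (0.0128) and total-count scaling (0.00532). In the other 13, edgeR and DESeq2 among them, it missed the threshold. The log2 change ranged from -0.39 to -0.14 over the 19. With H-151, Nf2 rose by 0.29 ± 0.10 against KO (limma adjusted p = 0.0286). That call was lost without KO library 2 (adjusted p = 0.255), without KO + H-151 library 2 (0.264), with no trend in the prior variance (0.117) and in DESeq2 (0.0759).

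Amot (chromosome X, 145446425 to 145505181, minus strand) encodes angiomotin, a junction and actin scaffold that binds YAP. It had the fewest reads of the 9 genes, 74 to 220 per library. Its level was 9.61 and 10.1 in control, 6.44 and 7.58 in KO, and 13.0 and 13.8 in KO + H-151. The 3 groups did not overlap. Amot fell in KO by 0.44 ± 0.15 on the log2 scale (limma adjusted p = 0.0325), a ratio of means of 0.712. The call was lost without control library 1 (adjusted p = 0.0907), without control library 2 (0.150), without KO library 1 (0.196) and in DESeq2 (0.131). With H-151, Amot rose against KO by 0.85 ± 0.15 (limma adjusted p = 0.000252), a ratio of means of 1.91, and this held in all 19 alternatives. Against control the KO + H-151 libraries were 0.41 ± 0.15 higher, which missed the threshold (limma adjusted p = 0.0624), and in edgeR the adjusted p was 0.0455. The 8 macrophage markers rose with H-151 as Amot did, and 2 of them rose and 1 fell in KO. Of the 6 endothelial markers 4 fell and 1 rose in KO, and 3 rose with H-151. Pecam1 stood at 2.85 and 2.74 in control, 0.348 and 0.255 in KO (4 and 3 reads), and 4.25 and 3.94 in KO + H-151. The marker that rose in KO was Kdr, at 4.201 and 2.955, then 6.791 and 7.239, then 5.422 and 4.19. Emcn fell in KO and with H-151 still lay 1.00 below control on the log2 scale (limma adjusted p = 0.00697). The part of either cell type in the Amot values was not tested.

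Amotl1 (chromosome 9, 14541966 to 14645056, minus strand) encodes an angiomotin-like protein. It stood at 364 and 341 in control, 328 and 339 in KO, and 388 and 338 in KO + H-151. The KO libraries were just below control, and of the KO + H-151 libraries one lay above all others and one among the KO libraries. The log2 change was -0.08 ± 0.07 in KO (limma adjusted p = 0.445) and 0.12 ± 0.07 with H-151 (adjusted p = 0.208). Under quantile normalization these were -0.25 (adjusted p = 0.0156) and 0.38 (0.000621), and under total-count scaling -0.24 (0.0152) and 0.30 (0.00362). Without KO + H-151 library 2 the change with H-151 was 0.22 (0.0204).

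**Figure D2:**
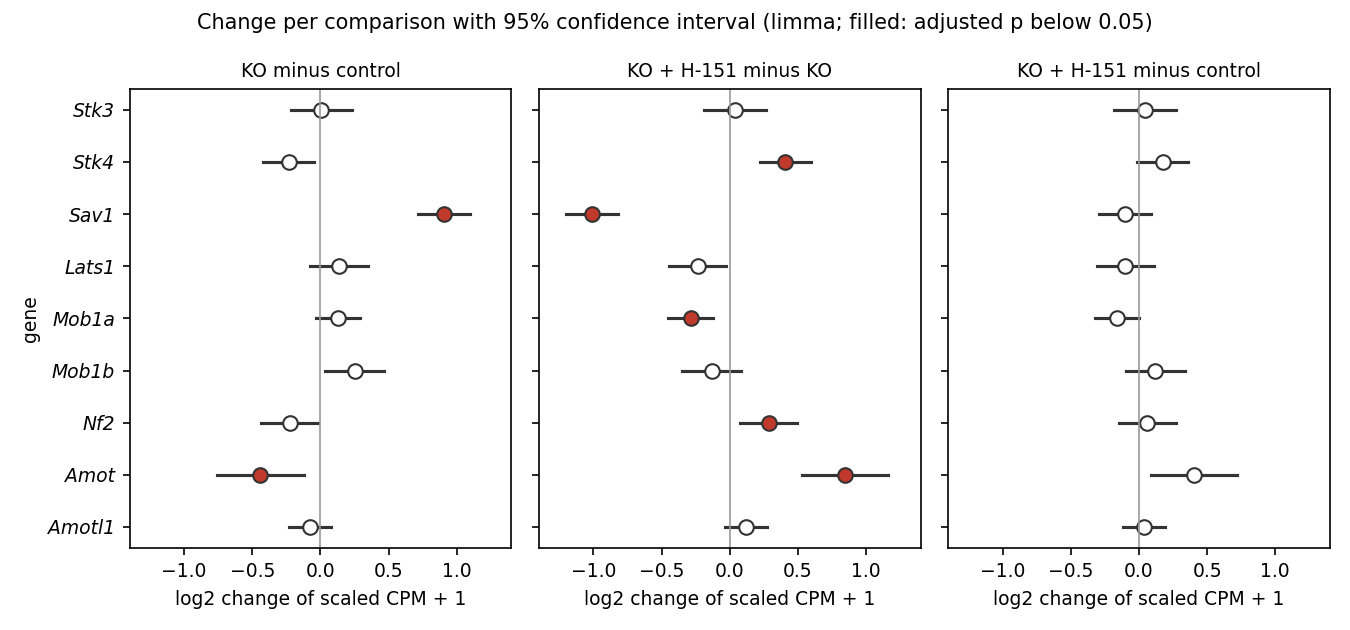
Log2 change of scaled CPM + 1 (horizontal axes) of the 9 genes in the 3 comparisons; circles are limma estimates, lines 95% confidence intervals, and filled circles passed an adjusted p of 0.05. Sav1 at 0.90 and -1.01 and Amot at -0.44 and 0.85 lie farthest from 0 in the first and second panels, and no circle is filled in the third.

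By the order of the group means, the members fell into opposite patterns around KO. Sav1, Lats1 and Mob1a were highest in KO and lowest in KO + H-151. Stk4, Nf2, Amot and Amotl1 were lowest in KO and highest in KO + H-151. Mob1b was highest in KO and lowest in control, and Stk3 was lowest in control and highest in KO + H-151. The highest group mean over the lowest was 2.03 for Sav1, 1.91 for Amot, 1.34 for Stk4, 1.23 for Nf2, 1.22 for Mob1a and 1.20 for Mob1b. It was 1.18 for Lats1, 1.09 for Amotl1 and 1.04 for Stk3. For all 9 genes control and KO + H-151 did not differ beyond the threshold in limma. Control and KO did not differ beyond it for the 7 members other than Sav1 and Amot, so most of these orders rest on the KO and KO + H-151 groups or on no called difference.

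The proteins of a pair can stand in for each other, so the share of one paralogue in the reads of its family was computed per library. The sizes of shares depend on how well each 3' end is captured, and only their change across groups is described, without a test. Lats1 made up 19.8% (95% Wilson interval 18.3 to 21.5) and 20.8% (19.2 to 22.4) of Lats1 and Lats2 reads in control. In KO it made up 28.2% (26.0 to 30.5) and 27.95% (25.8 to 30.2), and in KO + H-151 23.6% (21.8 to 25.5) and 26.8% (24.9 to 28.8). The 4 Cre-bearing libraries all lay above control, although the interval of KO + H-151 library 1 overlapped that of control library 2. Lats2, whose product is the sister kinase of LATS1, fell from 129.7 and 140.3 scaled CPM in control to 96.5 and 97.7 in KO, a log2 change of -0.47 ± 0.08 (limma adjusted p = 0.000137). In KO + H-151 Lats2 stood at 100.4 and 90.2, -0.50 ± 0.08 against control (adjusted p = 0.000159).

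Within the angiomotins, Amotl1 made up 58.4% (57.4 to 59.4) and 56.4% (55.3 to 57.5) of the reads in control. In KO it made up 75.9% (74.7 to 77.1) and 76.1% (74.9 to 77.2), and in KO + H-151 73.6% (72.7 to 74.6) and 71.0% (69.9 to 72.0). The share of Amotl2 moved the other way, from 40.0% and 41.9% to 22.6% and 22.2%, and then 23.9% and 26.2%. Amotl2, a junction scaffold and known YAP target, fell from 249.3 and 253.5 scaled CPM in control to 97.5 and 98.9 in KO, a log2 change of -1.35 ± 0.07 (limma adjusted p = 6.05e-11). Amot held 1.54% (1.31 to 1.82) and 1.67% (1.42 to 1.97) in control, 1.49% (1.19 to 1.87) and 1.70% (1.39 to 2.09) in KO, and 2.47% (2.15 to 2.83) and 2.89% (2.53 to 3.29) in KO + H-151. The share of Amot in KO overlapped that in control, and both libraries with H-151 were above all others.

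Stk3 made up 44.7% (41.8 to 47.7) and 42.0% (39.1 to 45.0) of the Stk3 and Stk4 reads in control, 46.0% (42.6 to 49.5) and 49.1% (45.7 to 52.5) in KO, and 38.4% (35.8 to 41.2) and 43.8% (41.2 to 46.4) in KO + H-151. Both KO libraries lay above control, and of the intervals of these 4 libraries, those of KO library 2 and control library 2 did not overlap. Mob1a made up 80.1% (78.5 to 81.6) and 82.1% (80.6 to 83.6) of the Mob1a and Mob1b reads in control, 81.8% (80.2 to 83.3) and 77.5% (75.8 to 79.2) in KO, and 78.9% (77.3 to 80.4) and 77.0% (75.3 to 78.6) in KO + H-151. The intervals of the KO libraries did not overlap each other. The processing notes name no counting by molecular identifiers, and all these intervals cover counting error only.

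**Figure D3:**
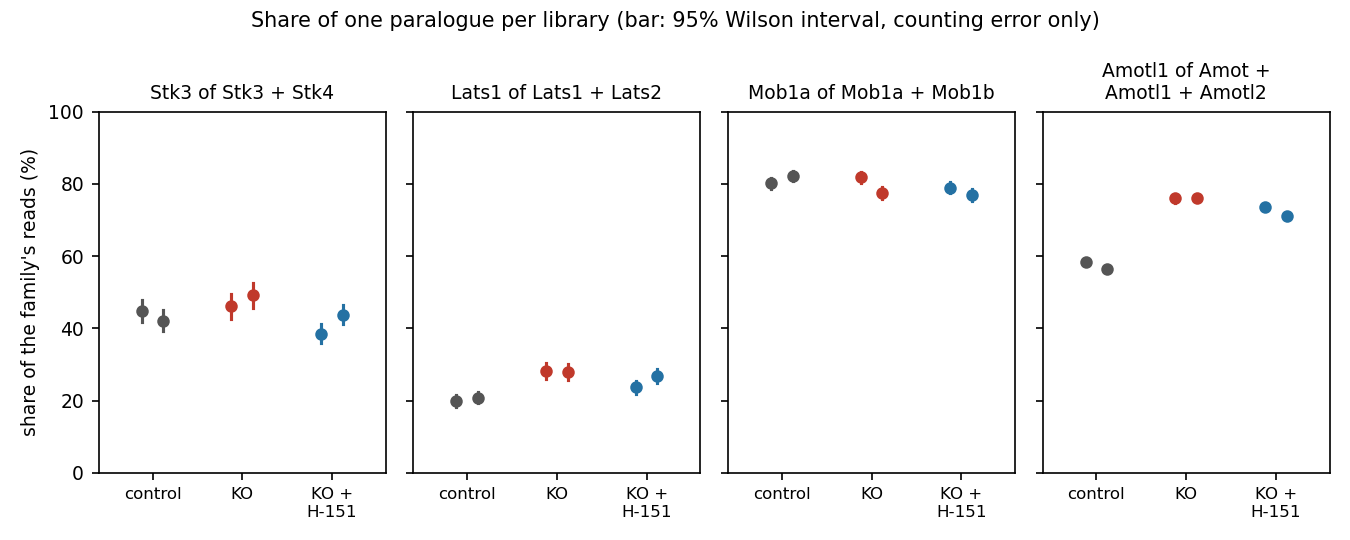
Share of one paralogue in its family's reads, in percent from 0 to 100 (vertical axis), in each library of the 3 groups; points are libraries and bars 95% Wilson intervals. Lats1 at 23.6% to 28.2% and Amotl1 at 71.0% to 76.1% lie above their control shares in all 4 Cre-bearing libraries, while for Stk3 and Mob1a the interval of KO library 1 overlaps those of both control libraries and that of KO library 2 does not reach that of control library 2.

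The other genes of the pathway were read from lists by role. Of 12 tested kinases that act on LATS or beside it, 4 rose in KO (Taok3, Tnik, Stk38 and Stk38l) and 2 fell (Lats2 and Map4k5), and the median log2 change was 0.04. That is 33.3% and 16.7% of the list, beside 18.2% and 14.2% of all genes. With H-151, 1 rose (Map4k5) and 4 fell (Taok3, Map4k3, Tnik and Stk38l), 8.33% and 33.3% beside 19.4% and 21.4% of all genes, with a median of -0.03. Over all genes the median was -0.01 in KO and 0.02 with H-151. Stk38l, which encodes the LATS relative NDR2, stood at 26.6 and 25.9 in control, 65.0 and 66.3 in KO, and 24.4 and 23.6 in KO + H-151. Its log2 change was 1.29 ± 0.09 in KO and -1.42 ± 0.09 with H-151 (limma adjusted p = 9.83e-09 and 2.54e-09), and the KO libraries alone were high, as with Sav1. Taok3, of the TAO kinases that activate MST, stood at 172 and 179, then 380.2 and 372, then 217 and 231, a change of 1.097 ± 0.06 and then of -0.75 ± 0.06 (adjusted p = 8.53e-10 and 9.97e-08). Tnik, a kinase of the MAP4K family, stood at 6.41 and 5.33, then 16.3 and 16.9, then 2.88 and 3.81, a change of 1.36 ± 0.17 and then of -2.03 ± 0.17 (adjusted p = 1.02e-05 and 7.67e-08). Map4k4, the kinase of this list with the highest level, changed by 0.12 ± 0.07 in KO (adjusted p = 0.177), and by -0.09 and -0.04 under quantile normalization and total-count scaling.

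Of 19 tested membrane, junction and polarity proteins, 5 rose in KO, Ptpn14, Fat4, Llgl1 and Tjp1 among them, and 3 fell (Amotl2, Wwc2 and Frmd6), 26.3% and 15.8% beside 18.2% and 14.2% of all genes, with a median log2 change of 0.08. With H-151, 2 rose (Amotl2 and Rassf3) and 8 fell, Ptpn14 and Tjp1 among them, 10.5% and 42.1% beside 19.4% and 21.4% of all genes, with a median of -0.14. Ptpn14, a phosphatase that binds YAP, stood at 69.0 and 71.3 in control, 100.7 and 109.9 in KO, and 64.2 and 54.8 in KO + H-151. It rose in KO by 0.58 ± 0.09 and fell with H-151 by 0.82 ± 0.09 (limma adjusted p = 6.17e-05 and 1.08e-06). Frmd6, the FERM-domain protein willin, stood at 124 and 127 in control, 70.8 and 80.7 in KO, and 91.7 and 76.5 in KO + H-151. It fell in KO by 0.72 ± 0.09 (adjusted p = 8.78e-06), and its KO and KO + H-151 libraries overlapped.

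Of 19 genes whose products limit MST or LATS (the STRIPAK phosphatase complex, the Ajuba family and ubiquitin ligases), 3 rose in KO (Slmap, Fgfr1op2 and Limd1) and 3 fell (Strn3, Stk24 and Ajuba), with a median log2 change of 0.06. Each is 15.8% of the list, near the 18.2% and 14.2% of all genes. With H-151, 1 rose (Ajuba) and 2 fell (Slmap and Itch), 5.26% and 10.5% beside 19.4% and 21.4% of all genes, with a median of -0.07. Ajuba, a LIM-domain protein that holds LATS inactive, stood at 24.2 and 23.0 in control, 9.40 and 10.2 in KO, and 20.8 and 18.1 in KO + H-151. It fell in KO by 1.19 ± 0.13 and rose with H-151 by 0.92 ± 0.13 (limma adjusted p = 1.47e-06 and 2.11e-05). Its relative Limd1 rose in KO by 0.34 ± 0.07 (adjusted p = 0.00113), which became 0.17 under quantile normalization (adjusted p = 0.0674). The STRIPAK genes Fgfr1op2 and Strn3 changed by 0.40 ± 0.07 (adjusted p = 0.00055) and -0.18 ± 0.07 (adjusted p = 0.0433). The Strn3 call was lost in 7 of 19 alternatives, among them those without control library 2, KO library 1 or KO library 2 (adjusted p = 0.313, 0.162 and 0.180).

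Of 11 genes that act on phosphorylated YAP and TAZ (casein kinases, the F-box proteins of beta-TrCP and the 14-3-3 family), 3 rose in KO (Fbxw11, Ywhag and Sfn) and 0 fell in limma, with a median log2 change of 0.05. The 3 are 27.3% of the list, beside 18.2% of all genes, and 14.2% of all genes fell. At an unadjusted p under 0.05 also 0 of the list fell, as in edgeR and DESeq2. With H-151, 1 rose (Ywhaq) and 6 fell, 9.09% and 54.5% beside 19.4% and 21.4% of all genes, with a median of -0.19. Fbxw11, an F-box protein that marks phosphorylated YAP for degradation, stood at 53.8 and 54.8 in control, 85.5 and 84.7 in KO, and 51.7 and 55.5 in KO + H-151. Its changes were 0.64 ± 0.08 and -0.66 ± 0.08 (limma adjusted p = 7.33e-06 and 4.39e-06). Sfn, the 14-3-3 sigma gene, changed by 0.67 ± 0.19 and -0.55 ± 0.19 (adjusted p = 0.0133 and 0.0316). Its KO call was lost without control library 2 (adjusted p = 0.119), without KO library 1 (0.159) and in DESeq2 (0.0520), and its H-151 call in 5 of 18 alternatives, those without KO library 1 (0.266) and without either KO + H-151 library (0.0908 and 0.0700) among them. The 14-3-3 genes Ywhag and Ywhae fell with H-151 by 0.23 ± 0.07 and 0.19 ± 0.07 (adjusted p = 0.0129 and 0.0419), but changed by 0.04 and 0.10 under quantile normalization. Without KO library 2 the Ywhag calls in KO and with H-151 were both lost (adjusted p = 0.0990 and 0.159), the latter also without KO + H-151 library 2 (0.0758). The Ywhae call held without KO + H-151 library 1 and was lost without any other single library.

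Among 7 regulators known as transcriptional targets of YAP and TAZ, a list that includes the member Nf2 and genes of the lists above, 4 fell in KO (Lats2, Amotl2, Wwc2 and Ajuba) and 1 rose (Ptpn14), 57.1% and 14.3% beside 14.2% and 18.2% of all genes. The median log2 change was -0.34, beside -0.01 over all genes. The list was chosen with earlier results of these data known, so its shares are not independent of them. With H-151, 3 rose against KO (Nf2, Amotl2 and Ajuba) and 1 fell (Ptpn14), 42.9% and 14.3% beside 19.4% and 21.4%. Against control, 3 of the 7 were still lower in KO + H-151 (Lats2, Amotl2 and Wwc2), 42.9% beside 11.4% of all genes, and 0 were higher in limma, beside 11.5%. At an unadjusted p under 0.05, and in edgeR and DESeq2, 0 were higher as well. Amotl2 stood at 126 and 125 in KO + H-151, -0.999 ± 0.07 against control (limma adjusted p = 2.2e-08). Wwc2, a relative of the scaffold KIBRA, fell in KO by 0.23 ± 0.07 (adjusted p = 0.0125). That call was lost with no trend in the prior variance (adjusted p = 0.0978), without control library 2 (0.106) and without KO library 2 (0.146). Wwc1, which encodes KIBRA, changed by -0.34 ± 0.18 (adjusted p = 0.156).

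**Figure D4:**
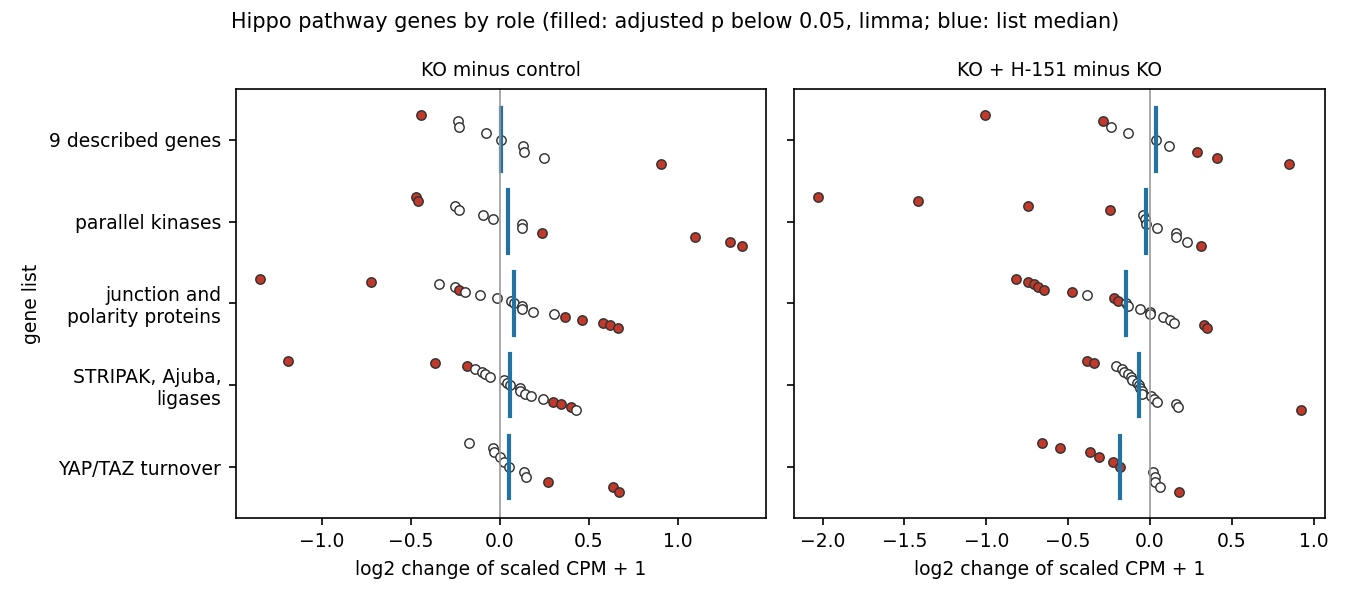
Log2 change of scaled CPM + 1 (horizontal axes) of the tested genes of 5 Hippo lists by role, in KO against control and in KO + H-151 against KO; each circle is a gene, filled where limma's adjusted p was below 0.05, and blue lines are list medians. The list medians lie between 0.01 and 0.08 on the left and between -0.19 and 0.04 on the right, and single genes such as Tnik at 1.36 and Amotl2 at -1.35 lie far from them.

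Genes with the most similar pattern were sought for the 3 members with the smallest p in KO against control, as the distance between 6 centred log2 values among 10174 named genes with a mean of at least 5 scaled CPM. Nearest to Sav1 were Uaca (distance 0.118), Tra2a (0.138) and Tlk2 (0.138). Tra2a, a splicing regulator, stood at 130.4 and 127 in control, 255 and 242 in KO, and 119 and 127.5 in KO + H-151. Nearest to Amot were Pla2g15 (0.116), Mturn (0.147) and Gli2 (0.148). Gli2, a transcription factor of the Hedgehog pathway, stood at 6.69 and 7.71, then 5.22 and 5.79, then 10.1 and 10.5. Nearest to Stk4 were Gnb5 (0.0839), Sdhaf1 (0.0848) and Kif1b (0.0898). Gnb5, a G protein subunit, stood at 28.9 and 31.2, then 24.7 and 23.4, then 34.0 and 33.6. These distances rest on 6 libraries and describe likeness of level alone.

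**Figure D5:**
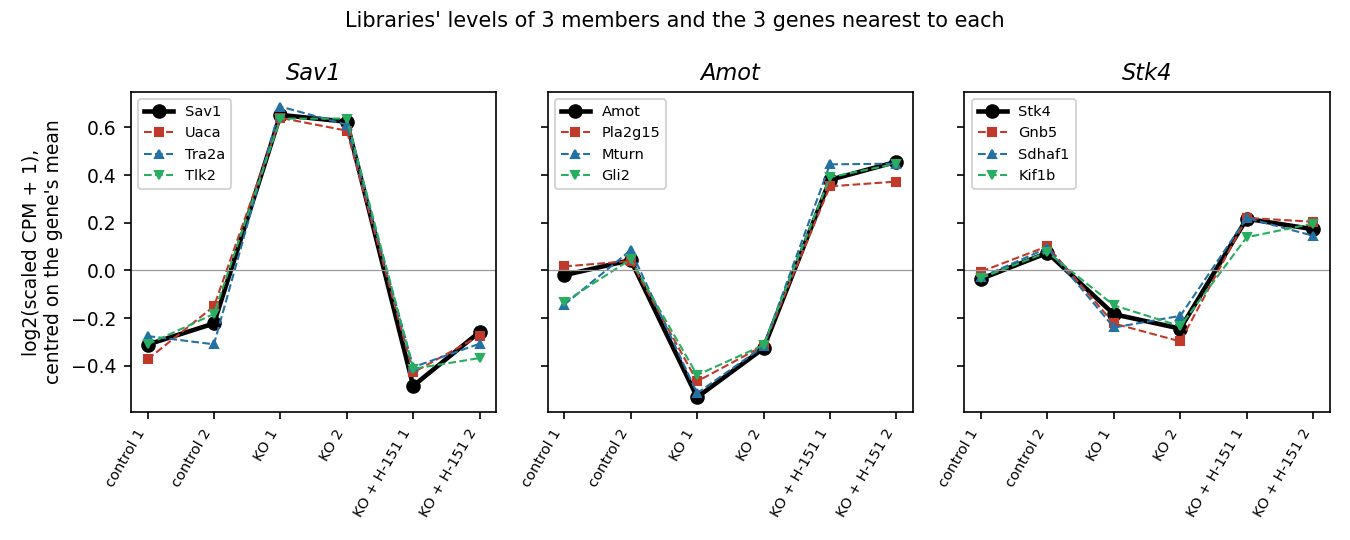
Log2(scaled CPM + 1), centred on each gene's mean (vertical axis), in the 6 libraries for Sav1, Amot and Stk4 (black) and the 3 genes nearest to each; lines only join the libraries of a gene. The genes near Sav1 are high in both KO libraries, and those near Amot and Stk4 are low there and high in both KO + H-151 libraries.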

How the data were processed

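Messenger RNA was measured with QuantSeq 3' tags in 6 libraries. The submitters' processing notes list STAR 2.5.3a, featureCounts, edgeR and mm10; annotation, strand setting and any low-level filter are not given in the sources used here. The deposited values are a signal, CPM computed by the authors with an effective library size and called scaled CPM here. All were whole multiples of 1 read within a tolerance of 0.0006, and reads were recovered by division.

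The log2(scaled CPM + 1) of 13648 genes that reached 1 scaled CPM in 2 or more libraries (58 did not) was fitted with 1 mean per group in limma 3.58.1 under R 4.3.3, with a variance trend and 3 residual degrees of freedom, which moderation raised to 15.7. Benjamini-Hochberg adjustment ran over all 13648 genes. The fit was tested on simulated data. Tried as alternatives were a pseudocount of 0.25 or 4, no filter or a mean of at least 10, median, quantile and total-count scaling, 2-group fits, no variance trend, a replicate term, each library left out, and edgeR 4.0.16 and DESeq2 1.42.0 on recovered reads. Replicate libraries differed by more than sampling noise. Genes named beside the members were, per list, the 3 with the smallest p in KO against control and the 1 with the highest mean, and all of the feedback list. Further genes given beside a small count were picked with their values in view. Positions are from GENCODE M21 on GRCm38, and promoters from RefSeq. The members and lists were chosen with earlier results of these data known. A few genes of the lists, and a marker sum that needs one of them, are not reported here.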

Additional observations from a re-analysis of the deposited data

How the results depend on the processing

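Over 19 alternatives the number of members that rose in KO against control was 1 or 2, with 2 in the crossed replicate block and a range of 1 to 2 with each library left out (2 without KO library 1). The number that fell, 1 in the main analysis, was 4 under quantile normalization and total-count scaling, 3 with only the 2 groups, 3 in the crossed block and 0 in DESeq2, and ranged from 0 to 3 with each library left out (0 without control library 1, control library 2 or KO library 1, and 3 without either KO + H-151 library). With H-151 against KO, 2 members fell, but 1 under quantile normalization, total-count scaling and no variance trend, and 1 to 2 with each library left out (1 without KO library 1). In the crossed block 3 members fell with H-151 against KO. The number that rose with H-151 against KO, 3 in the main analysis, was 2 with no variance trend and in DESeq2, and was also lower without KO library 2. It was 4 under quantile normalization and total-count scaling. Against control, 1 member, Amot, rose with a pseudocount of 4, no variance trend, edgeR or the crossed block.

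The replicate block changed no count of members (1 rose and 1 fell in KO, 3 rose and 2 fell with H-151). The numbers were not shown to pair the libraries, since the deviations of libraries with the same number correlated at -0.07, 0.15 and -0.13. The crossed pairing, with the KO numbers swapped, was chosen after seeing the data.

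Under quantile normalization and total-count scaling, Stk3 in KO was -0.0767 and -0.153, Mob1a -0.0202 and -0.0348, Map4k4 -0.0892 and -0.0411 and Ywhae -0.227 and -0.143. Under total-count scaling Lats1 in KO was -0.0240 and Mob1b with H-151 0.0426. Under quantile normalization Ywhag and Ywhae with H-151 were 0.0411 and 0.100. With each library left out, Stk3 ranged from -0.0502 to 0.0623 in KO, from -0.0948 to 0.172 with H-151 against KO and from -0.0887 to 0.178 against control. In KO + H-151 against control, Sav1 then ranged from -0.218 to 0.00890, Nf2 from -0.0708 to 0.193 and Amotl1 from -0.0582 to 0.139, and against KO Mob1b ranged from -0.269 to 0.00694. The cause was not tested. Of the member values under the alternatives that kept all libraries, 321 kept direction and side of the threshold, 18 newly passed it, 6 lost it and 6 turned sign. With a library left out the numbers were 140, 6, 6 and 10.

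Total-count scaling moved the median of all genes to -0.16 in KO and 0.18 with H-151, and the changes given for it include that shift. The share of higher among called genes was 56.2% in KO and 47.5% with H-151, 39.1% and 61.9% under quantile normalization and 29.9% and 71.2% for total-count scaling. Genes called lower in KO numbered 1938, with 1165 to 1252 without any one control or KO library, 1217 in DESeq2, 1266 with a mean of at least 10, 2987 under quantile normalization and 4054 for total-count scaling. Genes called higher with H-151 numbered 2643, with 1676 with a mean of at least 10 and 4770 under total-count scaling, and those called lower 2923, with 1930 there. Between KO + H-151 and control, 1570 and 1562 became 951 and 924 without control library 2, and the fall count 937 with no variance trend.

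List counts moved too. Among the parallel kinases, 2 to 5 fell in KO, and 0 to 5 rose with H-151 (0 without KO library 1, KO library 2 or KO + H-151 library 2). Among the junction proteins, 3 to 6 rose in KO (3 without KO library 1), 2 to 7 fell, and 1 to 5 rose with H-151 (1 without KO library 2 or KO + H-151 library 1). Among the genes that limit MST or LATS, 1 to 3 rose and 2 to 6 fell in KO, and with H-151 1 to 3 rose and 1 to 4 fell (1 without KO library 1, 4 without KO + H-151 library 2). Among the turnover genes, 0 to 3 fell in KO, and with H-151 0 to 3 rose (0 without any one library but KO + H-151 library 1, where it was 2) and 2 to 6 fell (3 without KO + H-151 library 2). Of the feedback genes 3 to 6 fell in KO, and 1 or 2 fell with H-151.

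Depth limits the low genes most, and Amot had as few as 74 reads in a library.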
